A study of Homo sapiens with 6 samples.

Results

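Genes that sit at the end of the mitogen-activated protein kinase (MAPK) cascade were followed in MDA-MB-231 cells. They were AP-1 and other immediate-early factors, feedback inhibitors of the cascade, and genes whose transcription ERK is known to drive. The set was a list of 37 gene symbols, chosen by name from the 58735 entries of the deposited count table, and each symbol matched 1 entry. All 37 had enough reads to be tested, 30 of them with a mean of at least 10 CPM (counts scaled to the library total, the unit of all levels here) and 7 below that. MDA-MB-231 is an established human triple-negative breast cancer line with a mesenchymal phenotype, grown here in serum-containing medium in both conditions. Azeliragon is a small-molecule antagonist of RAGE (receptor for advanced glycation end products, gene AGER). Polyadenylated RNA was sequenced from cells given Azeliragon at 2 µM for 72 h (3 libraries, a, b and c) and from cells given the vehicle DMSO for 72 h (3 libraries, a, b and c). No library from cells without either agent was analysed here, and all results are from 1 cell line. Whether a, b and c were separate cultures is not stated in the labels, so a p-value here reflects the scatter among 3 libraries that may differ only technically.

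ERK, the last kinase of the RAF-MEK-ERK cascade, phosphorylates transcription factors that switch on immediate-early genes such as FOS and EGR1 without new protein synthesis. Several products feed back: dual-specificity phosphatases (DUSPs) remove phosphate from ERK and related kinases, and Sprouty and SPRED proteins restrain signalling above ERK. AP-1 is a dimer of FOS-family and JUN-family proteins, and MDA-MB-231 cells are known for abundant FOSL1 (FRA-1).

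The libraries held 43091452 to 44313584 counts in DMSO and 41455979 to 43772671 in Azeliragon. Before the TMM factor was applied, 1 read was worth 0.0226 to 0.0241 CPM. DMSO a stood apart from its group: its coordinate on principal component 1 (37.6% of the variance) was -0.23, with DMSO b at 30.1, DMSO c at 33.7 and the Azeliragon libraries at -23.0 to -19.0. Mitochondrial genes took 5.03% to 5.71% of counts in DMSO and 4.88% to 4.96% in Azeliragon, and 8 heat shock genes summed to 2736 to 2988 CPM in DMSO and 2974 to 3038 CPM in Azeliragon. Of 6 genes listed as high in this line, VIM, AXL and KRT8 had means of 2036, 1403 and 1069 CPM in DMSO, CD44 and KRT18 of 587 and 332 CPM and EGFR of 116 CPM, and AXL and EGFR passed the test, higher after Azeliragon. Of 5 genes listed as low, PGR had 0 reads in every library, CDH1 at most 1 and ESR1 0, 0 and 5 in DMSO and 10, 9 and 14 in Azeliragon, whereas ERBB2 was at 109 CPM and EPCAM at 8.97 CPM in DMSO. Of 5 fibroblast markers, COL1A1 passed the test, and the list summed to 8.62 to 9.06 CPM in DMSO and 5.06 to 6.49 CPM in Azeliragon, with PDGFRA at 0 reads throughout. Of 4 endothelial markers, KDR passed, and the list summed to 3.08 to 4.50 CPM in DMSO and 5.96 to 6.29 CPM in Azeliragon, with PECAM1 at 4 to 18 reads a library. The 5 leukocyte markers summed to 1.24 to 1.6 CPM in DMSO and 0.868 to 1.08 CPM in Azeliragon, with CD3E at 0 reads throughout. The part of these shifts in the results that follow was not tested.

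Of the 37 genes, 10 passed the threshold between the conditions, an adjusted p under 0.05 in edgeR's quasi-likelihood test, against 6.27% of all 16081 genes tested. JUNB, EGR1, IER2, KLF10, NR4A2, NR4A3 and DUSP4 were lower after Azeliragon, against 3.53% of all genes called lower, and DUSP5, KLF6 and CCND1 were higher, against 2.75% called higher. The 10 changes ran from a 4.6-fold fall of NR4A3 to a 1.88-fold rise of DUSP5, and the other 8 were between 1.22-fold and 1.58-fold in size. The median log2 fold change of the 37 genes was -0.07, against -0.00 for all genes, and their median fold size of 1.13 was close to the 1.11 of all genes. In 19 of the 37 the conditions did not overlap, against 25.3% of all genes. These 19 were the 10 that passed and 9 that did not. Together the 37 genes took 0.511% to 0.537% of counts in DMSO and 0.517% to 0.538% in Azeliragon. In bulk RNA, fewer cells that make a transcript and less of it per cell cannot be told apart.

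The number of calls moved with single libraries, over all genes as in the list. Without DMSO a, 18 of the 37 genes passed, 6 higher and 12 lower, and these held all 10, while the share of all tested genes called was 23.7%. With a trend on GC content and length removed, 15 passed, 7 higher and 8 lower, so the higher share was 46.7% in place of 30.0%, and 10.3% of all genes passed. Without Azeliragon a, where 2.68% of all genes passed, 6 of the 37 did: DUSP5, JUNB, EGR1, KLF10, DUSP4 and NR4A3, the 6 that passed with any 1 library left out. The share of all genes was 2.86% without DMSO b, 4.94% without DMSO c, 3.01% without Azeliragon b and 2.70% without Azeliragon c. Counts given below with a library left out stand against these shares. Counts with all 6 libraries stand against 6.27% of all genes called, 2.75% higher and 3.53% lower.

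**Figure D1:**
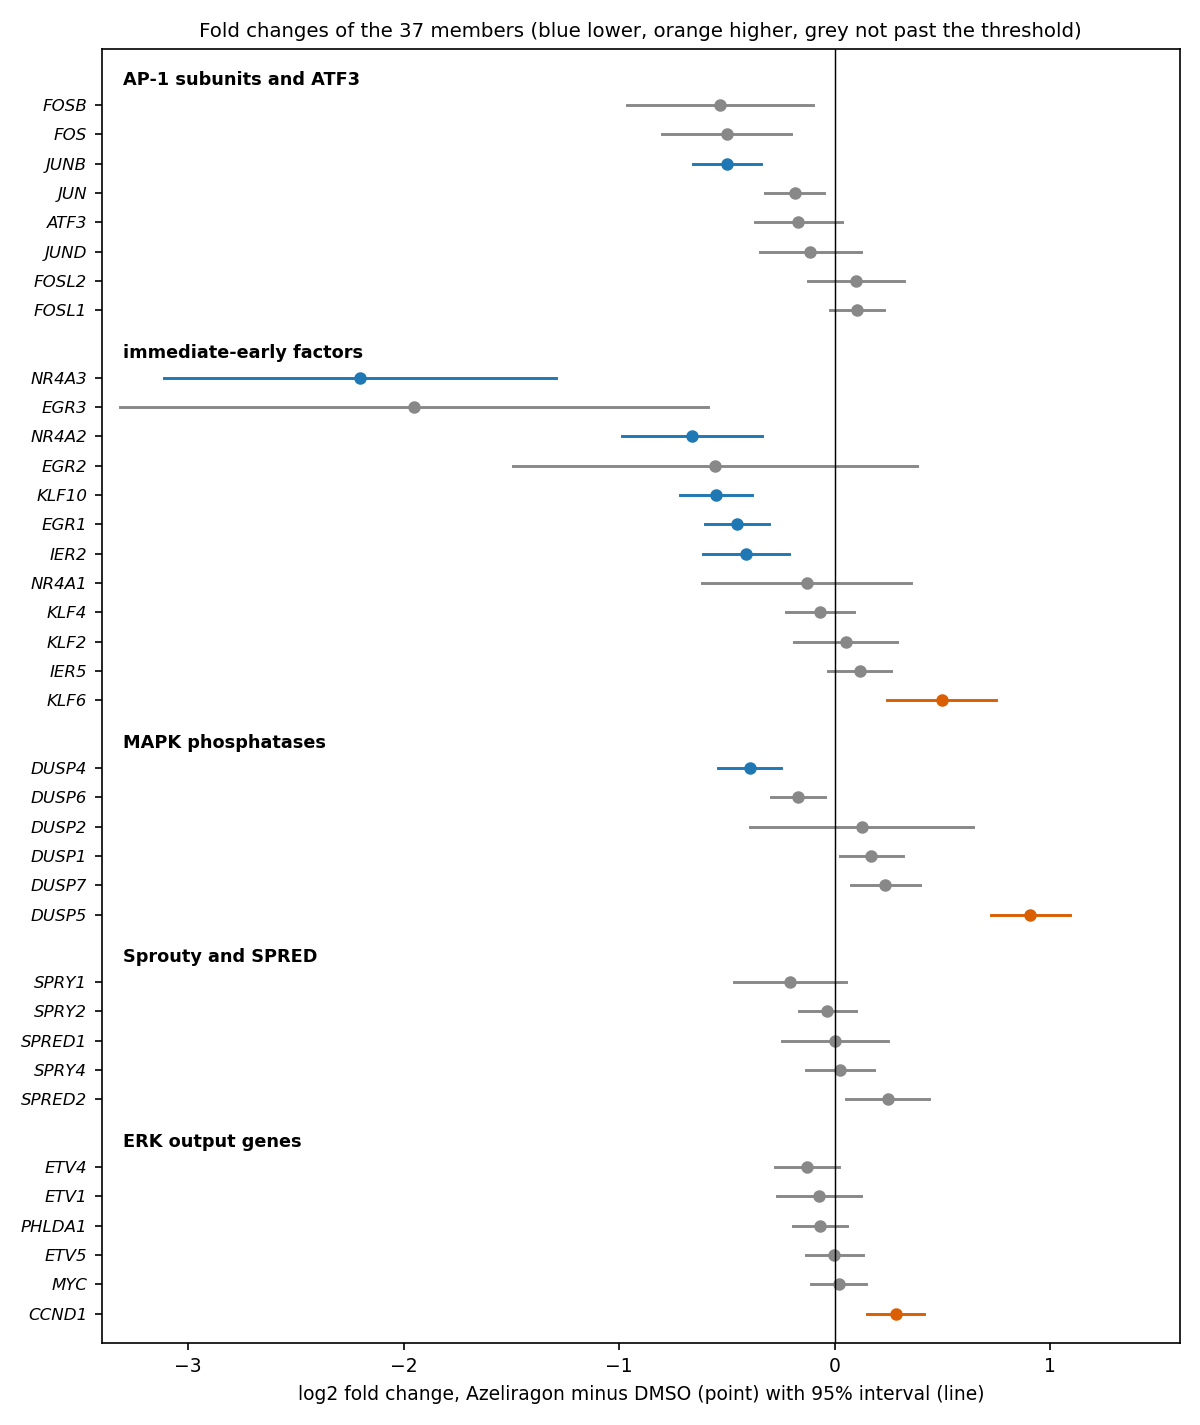
Log2 fold change (Azeliragon minus DMSO, x axis) of each of the 37 genes, grouped by role on the y axis, as a point with its 95% interval from the edgeR fit over 3 libraries per condition. Blue points passed the threshold lower, orange ones passed it higher and grey ones did not. EGR3, EGR2 and NR4A3, all with few reads, have the widest intervals.

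Among the immediate-early factors, 6 of 12 passed, 5 lower and 1 higher, against 6.27% of all genes called, 3.53% lower and 2.75% higher. They were EGR1, IER2, KLF10, NR4A2 and NR4A3 below DMSO and KLF6 above it. The count of 6 was 3 without Azeliragon a or c and 4 without DMSO b or Azeliragon b. The promoters of EGR1 and IER2, and that of the AP-1 gene JUNB, which also fell, are shown because they are the abundant fallers with a window in RefSeq's promoter table (assembly GRCh38.p14). Each run is the 250 bases upstream of the RefSeq start, 5′ to 3′ on the gene's strand, at chr5:138465229-138465478 (plus strand) for EGR1, chr19:13150161-13150410 (plus strand) for IER2 and chr19:12791236-12791485 (plus strand) for JUNB. Capitals mark matches to the motifs named after them.
EGR1: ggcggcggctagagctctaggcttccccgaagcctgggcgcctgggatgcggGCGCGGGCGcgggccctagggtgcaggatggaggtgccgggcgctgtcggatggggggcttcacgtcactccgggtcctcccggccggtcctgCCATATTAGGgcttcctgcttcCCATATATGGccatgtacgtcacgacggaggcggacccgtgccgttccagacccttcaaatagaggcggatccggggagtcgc
IER2: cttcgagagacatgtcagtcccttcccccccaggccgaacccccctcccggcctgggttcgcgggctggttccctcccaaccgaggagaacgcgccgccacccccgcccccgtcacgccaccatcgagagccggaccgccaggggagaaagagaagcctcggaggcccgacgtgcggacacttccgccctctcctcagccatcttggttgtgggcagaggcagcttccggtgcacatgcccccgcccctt
JUNB: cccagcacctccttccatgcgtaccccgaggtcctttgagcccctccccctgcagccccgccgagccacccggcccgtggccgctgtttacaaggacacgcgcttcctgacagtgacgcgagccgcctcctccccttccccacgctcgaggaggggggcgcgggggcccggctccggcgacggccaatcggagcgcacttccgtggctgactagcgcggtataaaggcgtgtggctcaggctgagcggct

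The motifs were the CArG box, which serum response factor binds, the AP-1 site TGANTCA, the cAMP response element TGACGTCA and the EGR site (GCG, any base, GGGCG), each searched on both strands from 250 bases before to 50 after the start. No match of the AP-1 motif is also one of the cAMP response element, since their lengths differ. The EGR1 window held CArG boxes that begin 105 and 83 bases before the start and an EGR site that begins 198 bases before it. The IER2 and JUNB windows held none of the 4 motifs, which says only that these letters are not in these windows. Of the 37 genes, 27 had a window, and those of FOSL1, EGR3, DUSP4, DUSP5, ETV4, ETV5, MYC, CCND1, NR4A2 and KLF10 were not matched. A CArG box lay in 2 of the 27 (EGR1 and EGR2), against 1.6% of 27305 genes with a window. An EGR site lay in 9 of the 27 (DUSP2, EGR1, EGR2, KLF2, KLF4, KLF6, SPRY1, SPRY2 and SPRY4), against 11.2% of genes. An AP-1 site lay in 2 (FOSL2 and SPRED2) against 9.37%, and a cAMP response element in 2 (DUSP1 and JUND) against 2.25%.

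EGR1 (chromosome 5, 138465490 to 138469315, plus strand, GRCh38, like all gene positions here), a zinc finger factor induced by growth signals, was at 252, 252 and 261 CPM in DMSO a, b and c and at 169, 193 and 196 CPM in Azeliragon a, b and c. All Azeliragon libraries lay below all DMSO libraries. The log2 fold change was -0.45 (SE 0.07, adjusted p = 0.00197), a 1.37-fold fall. EGR1 made up 99.7% of the EGR reads per length in DMSO, since its relatives EGR2 and EGR3 were barely transcribed. EGR2 had 18, 18 and 17 reads in DMSO and 9, 13 and 13 in Azeliragon, a log2 fold change of -0.56 (SE 0.43, adjusted p = 0.509). EGR3 had 26, 29 and 14 reads in DMSO and 6, 1 and 10 in Azeliragon, a log2 fold change of -1.95 (SE 0.63, adjusted p = 0.0917). Neither passed, although in both genes the conditions did not overlap. EGR3 passed with no filter on low counts (adjusted p = 0.0289), and its log2 fold change ran from -2.65 without Azeliragon c to -1.45 without Azeliragon b.

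IER2 (chromosome 19, 13150415 to 13154908, plus strand), a short-lived nuclear protein of the early response, was at 107, 129 and 143 CPM in DMSO and at 96.0, 94.2 and 94.2 CPM in Azeliragon. The Azeliragon libraries were nearly equal and DMSO a was the DMSO library closest to them. The log2 fold change was -0.41 (SE 0.09, adjusted p = 0.0184), and the call was lost without DMSO b or without any 1 of the Azeliragon libraries (adjusted p of up to 0.104). IER5, a related early-response gene, was at 169.6 ± 5.57 CPM in DMSO and 184 ± 12.6 CPM in Azeliragon (SD, n = 3) and did not pass.

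The NR4A genes encode orphan nuclear receptors that are induced by many signals. NR4A3 (chromosome 9, 99821855 to 99866891, plus strand) had 61, 68 and 43 reads in DMSO and 6, 12 and 18 in Azeliragon. This is 1.35, 1.58 and 0.997 CPM against 0.140, 0.275 and 0.434 CPM, with no overlap. The log2 fold change of -2.20 (SE 0.42, adjusted p = 0.0075) was the largest in size of the 37, at one of the lowest levels. NR4A2 (chromosome 2, 156324432 to 156342348, minus strand) was at 10.1, 7.53 and 10.7 CPM in DMSO and at 5.77, 6.72 and 5.38 CPM in Azeliragon. Its conditions lay apart but DMSO b came close to Azeliragon b. Its log2 fold change was -0.66 (SE 0.15, adjusted p = 0.0196), and the call was lost without DMSO c, Azeliragon a or Azeliragon c (adjusted p of up to 0.111). NR4A1 did not pass: its log2 fold change was -0.13, with a 95% interval of -0.61 to 0.35.

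The 4 KLF genes on the list, zinc finger factors of the Krüppel-like family, divided. KLF10 (chromosome 8, 102648779 to 102655902, minus strand), known as an early target of TGF-beta, was at 60.5, 60.8 and 55.0 CPM in DMSO and at 40.1, 37.7 and 42.5 CPM in Azeliragon. All Azeliragon libraries were below all DMSO libraries, with a log2 fold change of -0.55 (SE 0.08, adjusted p = 0.0011). KLF6 (chromosome 10, 3775996 to 3785281, minus strand) was at 156, 121 and 104 CPM in DMSO and at 182, 180.2 and 174 CPM in Azeliragon. DMSO a was again the control closest to the Azeliragon libraries, which spread little. Its log2 fold change was 0.50 (SE 0.12, adjusted p = 0.0245), and the call was lost without DMSO b or without any 1 Azeliragon library (adjusted p of up to 0.139). Per length, KLF6 made up 30.7% ± 4.8 of the reads of the 4 KLF genes in DMSO and 41.2% ± 2.07 in Azeliragon, and KLF10 22.0% ± 0.78 and 14.2% ± 1.0 (SD, n = 3). The log2 fold changes of KLF2 (0.05) and KLF4 (-0.07) did not pass.

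**Figure D2:**
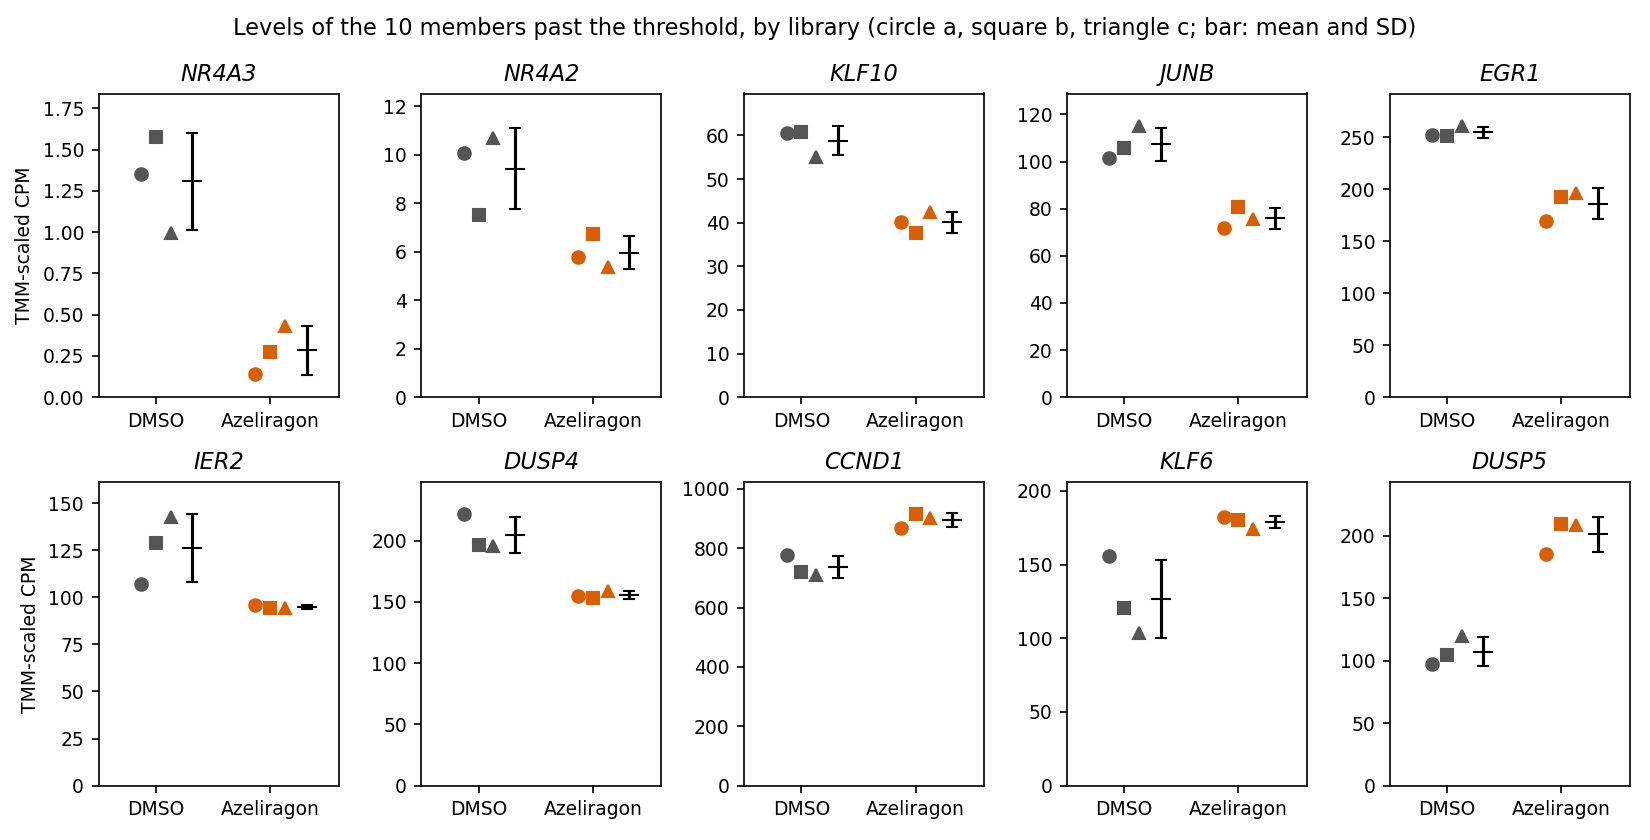
TMM-scaled CPM (y axis, from 0) in each of the 6 libraries for the 10 genes that passed the threshold, with 1 panel per gene, DMSO on the left and Azeliragon on the right. Circles, squares and triangles are libraries a, b and c and bars give the mean and SD (n = 3); in all 10 panels the conditions do not overlap.

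Of the AP-1 subunits and ATF3, 1 of 8 passed, against 6.27% of all genes. The count was 5 without DMSO a (23.7% of all genes), 3 without DMSO c (4.94%) and 2 without Azeliragon c (2.70%). JUNB (chromosome 19, 12791496 to 12793315, plus strand), a JUN-family subunit often described as a weaker activator than JUN, was at 101, 106 and 115 CPM in DMSO and at 71.7, 80.7 and 75.5 CPM in Azeliragon. The conditions did not overlap, and the log2 fold change was -0.50 (SE 0.07, adjusted p = 0.00154). JUN was at 356, 393 and 374 CPM in DMSO and at 324, 344 and 320.3 CPM in Azeliragon, also without overlap. Its log2 fold change was -0.19 (SE 0.06) and its adjusted p of 0.114 missed the threshold. JUND, which is often transcribed in resting cells too, was at 200.2, 226 and 274 CPM in DMSO and at 191, 230.2 and 226 CPM in Azeliragon, with overlap and a log2 fold change of -0.11 (SE 0.11, adjusted p = 0.603). Without DMSO a, both JUN and JUND passed, lower. As a share of JUN-family reads per length, JUNB was at 20.4% ± 0.66 in DMSO and 16.7% ± 0.25 in Azeliragon, JUN at 36.6% ± 2.73 and 37.2% ± 1.80, and JUND at 43.0% ± 3.09 and 46.2% ± 2.03 (SD, n = 3).

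FOS-family reads came mostly from FOSL1, whose product FRA-1 is linked to invasion in mesenchymal breast cancer cells. FOSL1 was at 553, 567 and 570.1 CPM in DMSO and at 582, 613 and 618 CPM in Azeliragon. The Azeliragon libraries were all above the DMSO libraries, but the log2 fold change was 0.10 (SE 0.06, adjusted p = 0.351). Once the trend on GC and length was taken out it was 0.18 and passed (adjusted p = 0.0375), and with DMSO a also left out it was 0.19 (adjusted p = 0.00124). Per length, FOSL1 made up 89.3% ± 1.67 of FOS-family reads in DMSO and 90.2% ± 0.49 in Azeliragon (SD, n = 3). FOSL2 was at 222, 169 and 163 CPM in DMSO and at 203, 186 and 204 CPM in Azeliragon. DMSO a lay above every Azeliragon library and DMSO b and c below, and the log2 fold change was 0.10 (SE 0.10, adjusted p = 0.645). Without DMSO a, FOSL2 passed at a log2 fold change of 0.25.

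FOS, the classic ERK-induced AP-1 subunit, was at 32.6, 31.9 and 24.7 CPM in DMSO and at 17.2, 21.1 and 24.8 CPM in Azeliragon. Azeliragon c reached the level of DMSO c, so the conditions overlapped. The log2 fold change was -0.50 (SE 0.14) and the adjusted p of 0.0521 just missed the threshold. It passed in DESeq2, in limma-voom, with relative log expression factors, with no filter on low counts, with the GC and length trend removed, and without DMSO a, DMSO c or Azeliragon c. Leaving out each library gave adjusted p from 0.0088 to 0.225. FOSB was at 5.52, 4.31 and 3.36 CPM in DMSO and at 2.79, 2.80 and 3.54 CPM in Azeliragon, with overlap and a log2 fold change of -0.53 (SE 0.20, adjusted p = 0.148). It passed without DMSO c. ATF3, a stress-induced factor that pairs with JUN proteins, had means of 15.8 ± 1.11 CPM in DMSO and 14.0 ± 0.55 CPM in Azeliragon (SD, n = 3) and did not pass.

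**Figure D3:**
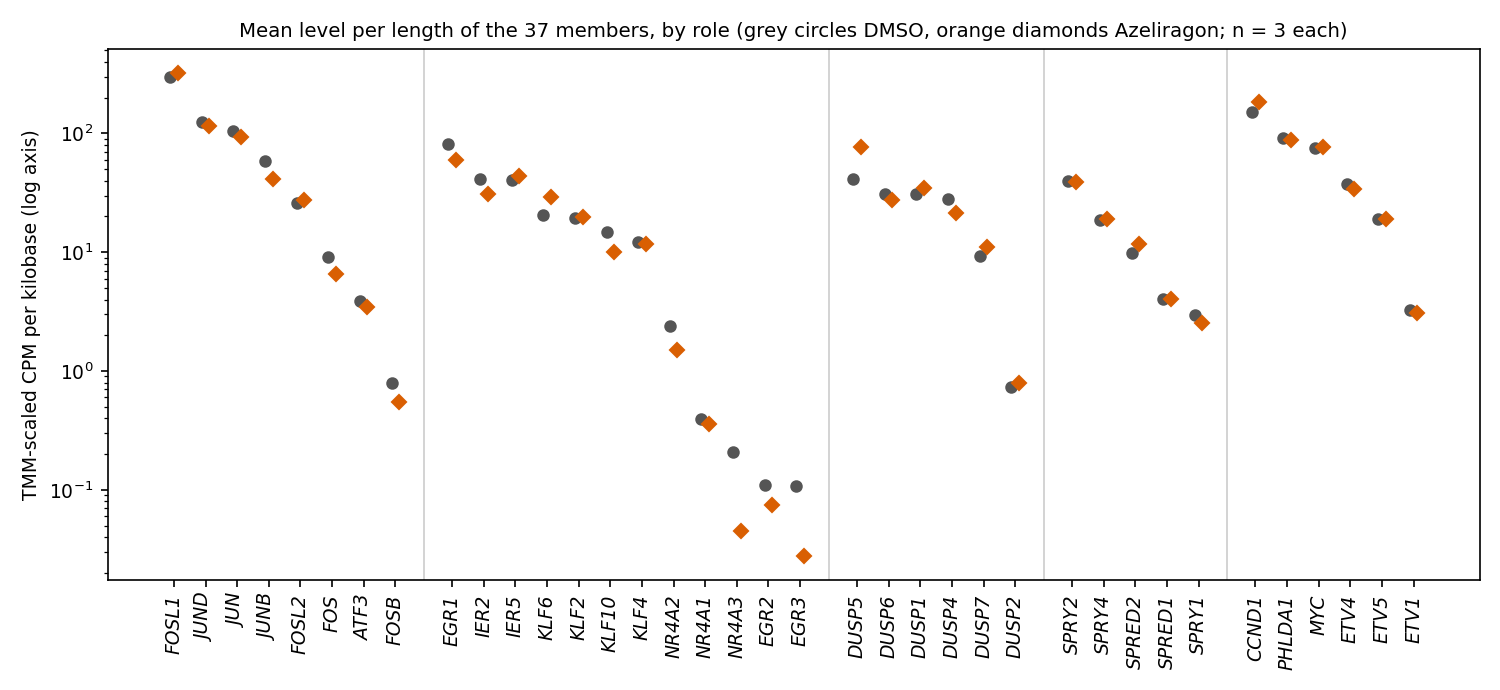
Mean TMM-scaled CPM per kilobase of exons (log y axis) of the 37 genes, grouped by role along the x axis, with grey circles for DMSO and orange diamonds for Azeliragon (mean of 3 libraries each). FOSL1 stands highest at 298 CPM per kilobase in DMSO, above CCND1 at 152 and JUND at 125, while EGR2, EGR3 and NR4A3 lie under 0.3.

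The 6 phosphatase genes gave 1 rise and 1 fall, against 2.75% of all genes called higher and 3.53% lower. DUSP5 (chromosome 10, 110497838 to 110511544, plus strand), a nuclear phosphatase for ERK, was at 97.2, 104 and 120.2 CPM in DMSO and at 185, 209.8 and 209 CPM in Azeliragon. The lowest Azeliragon library was far above the highest DMSO library. The log2 fold change of 0.91 (SE 0.08, adjusted p = 7.0e-05) was a 1.88-fold rise, the largest of the 37 genes, and leaving out each library gave 0.84 to 0.997. DUSP4 (chromosome 8, 29333064 to 29350668, minus strand), also a nuclear phosphatase, which acts on ERK, JNK and p38, was at 222, 196 and 196 CPM in DMSO and at 154, 153 and 159 CPM in Azeliragon. All Azeliragon libraries were lower, with a log2 fold change of -0.39 (SE 0.07, adjusted p = 0.00412).

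DUSP5 and DUSP4 moved in opposite directions in the same libraries. The log2 ratio of DUSP5 to DUSP4 CPM, in which only the difference between conditions can be read because the genes differ in length, was -1.19, -0.91 and -0.70 in DMSO a, b and c and 0.26, 0.45 and 0.39 in Azeliragon. The ratio rose by 1.303 on the log2 scale, or 2.47-fold. Its exact two-sided permutation p = 0.1 is the smallest that 3 libraries against 3 allow. Because each gene already lay apart between conditions, in opposite directions, this p could take no other value and adds no evidence. The ratio was taken after the changes of both genes were known. Of the reads of the 6 DUSP genes per length, DUSP5 took 29.04% ± 2.43 in DMSO and 44.6% ± 1.2 in Azeliragon, and DUSP4 20.02% ± 1.78 and 12.5% ± 0.50 (SD, n = 3).

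The other DUSP genes did not pass. DUSP6, the cytoplasmic ERK phosphatase often read as a gauge of ERK activity, was at 144 ± 2.05 CPM in DMSO and 128 ± 0.10 CPM in Azeliragon (SD, n = 3), without overlap, with a log2 fold change of -0.17 (SE 0.06, adjusted p = 0.114). DUSP7, a second cytoplasmic ERK phosphatase, had a log2 fold change of 0.24 (SE 0.07, adjusted p = 0.0832), and DUSP1, a stress-induced nuclear one, of 0.17 (SE 0.07, adjusted p = 0.178). Both also lay apart between conditions. DUSP6 and DUSP7 passed without DMSO a, which made 4 of the 6, and DUSP7 and DUSP1 with the GC and length trend removed. DUSP2 was at 1.41 CPM in DMSO and 1.54 CPM in Azeliragon and overlapped.

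None of the 5 Sprouty and SPRED genes passed in edgeR, against 6.27% of all genes, and 1 had an unadjusted p under 0.05. DESeq2 and limma-voom called 0 each. The gene with that p was SPRED2, at 50.9 ± 6.54 CPM in DMSO and 60.4 ± 0.44 CPM in Azeliragon (SD, n = 3). Its log2 fold change was 0.25 (SE 0.09, adjusted p = 0.138), and it passed without DMSO a and with the GC and length trend removed. SPRY2, the Sprouty gene with the highest level per length here, was at 122 ± 1.06 CPM and 119 ± 4.17 CPM, and its 95% interval for the log2 fold change ran from -0.17 to 0.10. SPRY4 and SPRED1 had log2 fold changes of 0.03 and -0.00, with intervals of -0.13 to 0.18 and -0.24 to 0.24. SPRY1, at 11.7 CPM in DMSO, had a log2 fold change of -0.21 and overlapped.

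Of the 6 genes taken as ERK output, only CCND1 passed in edgeR, against 6.27% of all genes. CCND1 (chromosome 11, 69641087 to 69654474, plus strand), which encodes cyclin D1, the partner of CDK4 and CDK6 in G1, was at 779, 720.3 and 709.7 CPM in DMSO and at 869, 914 and 903 CPM in Azeliragon. The conditions did not overlap, and the log2 fold change of 0.28 (SE 0.06, adjusted p = 0.0157) was a 1.22-fold rise. The call was lost without DMSO b or without any 1 Azeliragon library (adjusted p of up to 0.120). PHLDA1, whose transcript is often used in ERK activity scores, was at 711, 757 and 758 CPM in DMSO and at 709.9, 699 and 715 CPM in Azeliragon, with overlap and a log2 fold change of -0.07 (SE 0.06, adjusted p = 0.556). MYC was at 232, 232 and 219.9 CPM in DMSO and at 227, 234 and 231 CPM in Azeliragon. Its log2 fold change of 0.02 had a 95% interval of -0.11 to 0.14. The PEA3 factors ETV4, ETV5 and ETV1, which bind ETS sites and are transcribed under ERK control, had log2 fold changes of -0.13, -0.00 and -0.07, and ETV4 passed without DMSO a.

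Of the 27 genes that did not pass, 21 had a 95% interval that stayed within 1.5-fold in both directions. The other 6 were FOS, FOSB, EGR2, EGR3, NR4A1 and DUSP2, of which all but FOS were under 10 CPM, and the intervals of these 6 do not exclude a change of 1.5-fold in at least 1 direction.

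**Figure D4:**
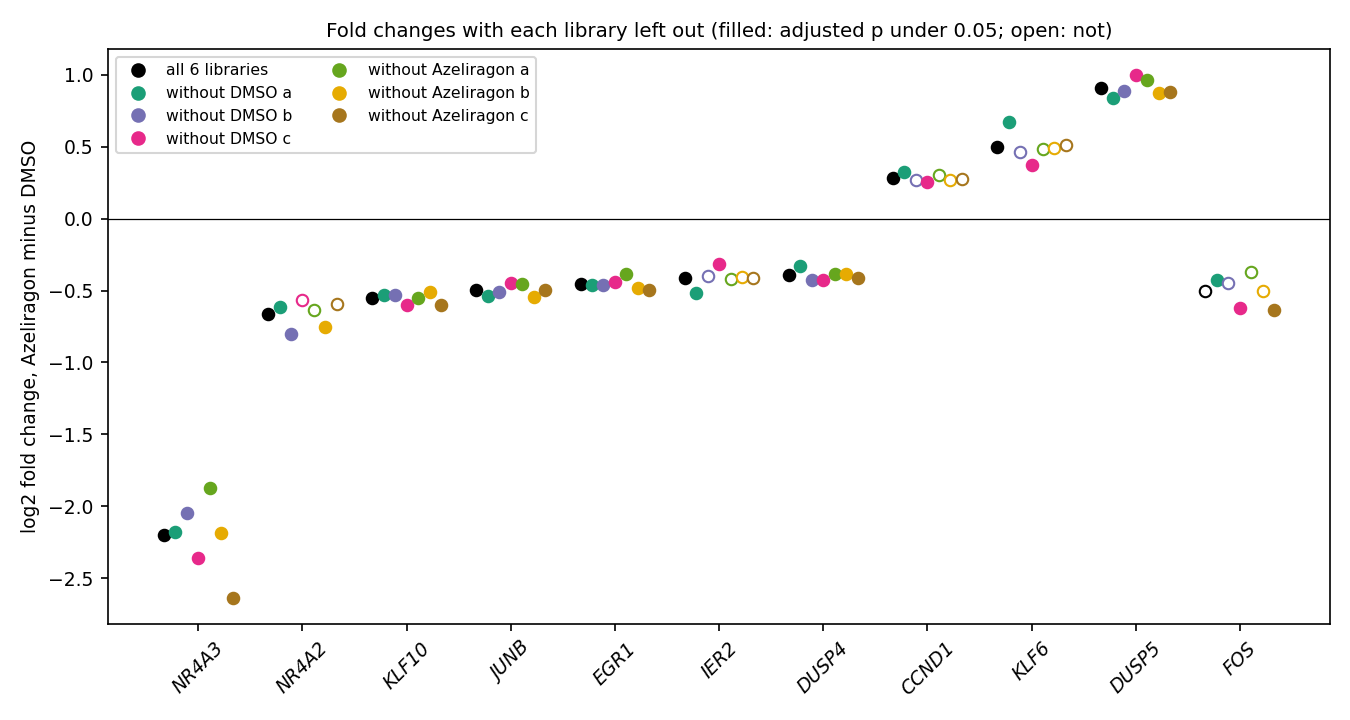
Log2 fold change (Azeliragon minus DMSO, y axis) of the 10 genes that passed and of FOS (x axis), fitted with all 6 libraries and with each library left out in turn. Filled marks had an adjusted p under 0.05: DUSP5, JUNB, EGR1, KLF10, DUSP4 and NR4A3 are filled throughout, and no gene changes direction.

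Exons of 9 of the 37 genes overlap another gene in GENCODE 29, and since the strand setting of the counting is not given in the sources used here, such counts are uncertain. Among genes that passed, 259 of the 1820 exonic bases of JUNB overlap HOOK2 on the other strand, itself at 19.1 CPM in DMSO and 16.8 CPM in Azeliragon. For CCND1 the overlap is 497 of 4830 bases with LTO1, at 42.6 and 45.1 CPM. IER2 shares 946 of 3072 bases with AC011446.2, which had 0 reads in every library. The median GC content of the 37 genes was 51.9%, against 48.7% over all tested genes, and their median level 91.7 CPM against 13.2 CPM.

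Around the list, 164 related genes were grouped into 10 lists of pathway components and outputs. Of the 151 that could be tested, 21 passed (13.9%, against 6.27% of all genes), 11 higher and 10 lower (against 2.75% and 3.53%), with a median log2 fold change of 0.07. Without DMSO a, 53 passed, where 23.7% of all genes did. The count was 8 without DMSO b (2.86% of all genes) or Azeliragon c (2.70%), 9 without Azeliragon a (2.68%) and 10 without Azeliragon b (3.01%). The core of the cascade was a list of 24 genes that include the RAF, MEK, ERK, RSK, MNK and MSK kinases and their adaptors. Of these edgeR called 0, against 6.27% of all genes, with 2 at an unadjusted p under 0.05. DESeq2 and limma-voom called 0 each. Without DMSO a, edgeR called 5 of the 24, where it called 23.7% of all genes. With the GC and length trend removed it called 2, where 10.3% of all genes passed. The smallest p was that of RPS6KA4 (MSK2), at 233 CPM in DMSO and 265 CPM in Azeliragon, with a log2 fold change of 0.19 (adjusted p = 0.0833).

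Upstream of the cascade, 2 of 10 ERBB genes passed, in opposite directions, against 6.27% of all genes. TGFA, a ligand of the EGF receptor, was at 72.8 ± 4.63 CPM in DMSO and 45.7 ± 1.66 CPM in Azeliragon (log2 fold change -0.67, adjusted p = 0.000183). EGFR, its receptor, was at 116 ± 27.5 CPM and 174 ± 8.84 CPM (SD, n = 3; log2 fold change 0.58, adjusted p = 0.0174). TGFA kept its call with any 1 library left out, and EGFR lost it without DMSO b or any 1 Azeliragon library (adjusted p of up to 0.116).

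Among transcription factors acted on by ERK or working with SRF, 1 of 11 passed, against 6.27% of all genes. This was ETS1, at 199 CPM in DMSO and 267 CPM in Azeliragon (log2 fold change 0.42, adjusted p = 0.00763). Its call was lost without DMSO b or Azeliragon a (adjusted p of up to 0.0649). Of 15 other phosphatases and negative regulators, 2 were higher, against 2.75% of all genes. They were DUSP14, at 73.8 and 99.99 CPM (log2 fold change 0.44, adjusted p = 0.00499), and ERRFI1 (MIG6), an inhibitor of the EGF receptor, at 166 and 206 CPM (log2 fold change 0.31, adjusted p = 0.00912). DUSP14 kept its call with any 1 library left out, whereas ERRFI1 lost it without DMSO b or any 1 Azeliragon library (adjusted p of up to 0.0729). Of 14 bZIP partners of AP-1, 1 passed, against 6.27% of all genes. This was MAFK, at 53.4 and 70.1 CPM (log2 fold change 0.39). MAFK lost its call when DMSO b or Azeliragon a or c was left out (adjusted p of up to 0.0553).

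Of 20 other immediate-early genes, 2 were higher and 3 lower, against 2.75% and 3.53% of all genes. CYR61 (CCN1), a matricellular protein, was at 2322 CPM in DMSO and 2856 CPM in Azeliragon (log2 fold change 0.30). HES1, a Notch target, was at 47.9 and 28.6 CPM (-0.74 on the log2 scale), IER5L at 57.6 and 36.2 CPM (-0.67), and the kinase gene SGK1 at 59.2 and 46.3 CPM (-0.35). Each of these 4 calls was lost when some 1 library was left out: HES1 without Azeliragon a, CYR61 without DMSO b, Azeliragon b or Azeliragon c, IER5L without DMSO b or Azeliragon a or c, and SGK1 without DMSO b or any 1 Azeliragon library (adjusted p of up to 0.115).

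Of 20 genes listed as ERK and AP-1 output, 3 were higher and 4 lower, against 2.75% and 3.53% of all genes. MMP1, an interstitial collagenase with AP-1 sites in its promoter, rose from 1.35 ± 0.15 CPM to 7.06 ± 0.91 CPM (SD, n = 3), a log2 fold change of 2.38 (SE 0.17, adjusted p = 1.14e-05). PLAU, the urokinase gene, fell from 1555 ± 119 CPM to 1008 ± 33.4 CPM, a log2 fold change of -0.63 (SE 0.07, adjusted p = 0.000183). Both kept their calls with any 1 library left out. F3, tissue factor, was higher (log2 fold change 0.34) and IL6 lower (-0.45); F3 lost its call without Azeliragon b or c, and IL6 without DMSO b, Azeliragon b or Azeliragon c (adjusted p of up to 0.101).

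Of 15 JNK and p38 kinases, 1 passed, against 6.27% of all genes. This was MAP2K3, which activates p38, at 182 CPM in DMSO and 246 CPM in Azeliragon (log2 fold change 0.43, adjusted p = 0.00309). Of 13 genes of the MYC network and D-type cyclins, 2 were lower, against 3.53% of all genes. They were MXD3 and MXD4, which compete with MYC for MAX (-0.50 and -0.29 on the log2 scale). MAP2K3 and MXD3 kept their calls with any 1 library left out, and MXD4 lost its call without DMSO b or any 1 Azeliragon library (adjusted p of up to 0.154). Of 9 other KLF genes edgeR called 0, against 6.27% of all genes, with 3 at an unadjusted p under 0.05. DESeq2 called 1 and limma-voom 0. Without DMSO a, edgeR called 4 of them, against 23.7% of all genes. With the GC and length trend removed it called 1, against 10.3%. KLF15 had the smallest p, at 2.11 CPM in DMSO and 3.62 CPM in Azeliragon (adjusted p = 0.0657).

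**Figure D5:**
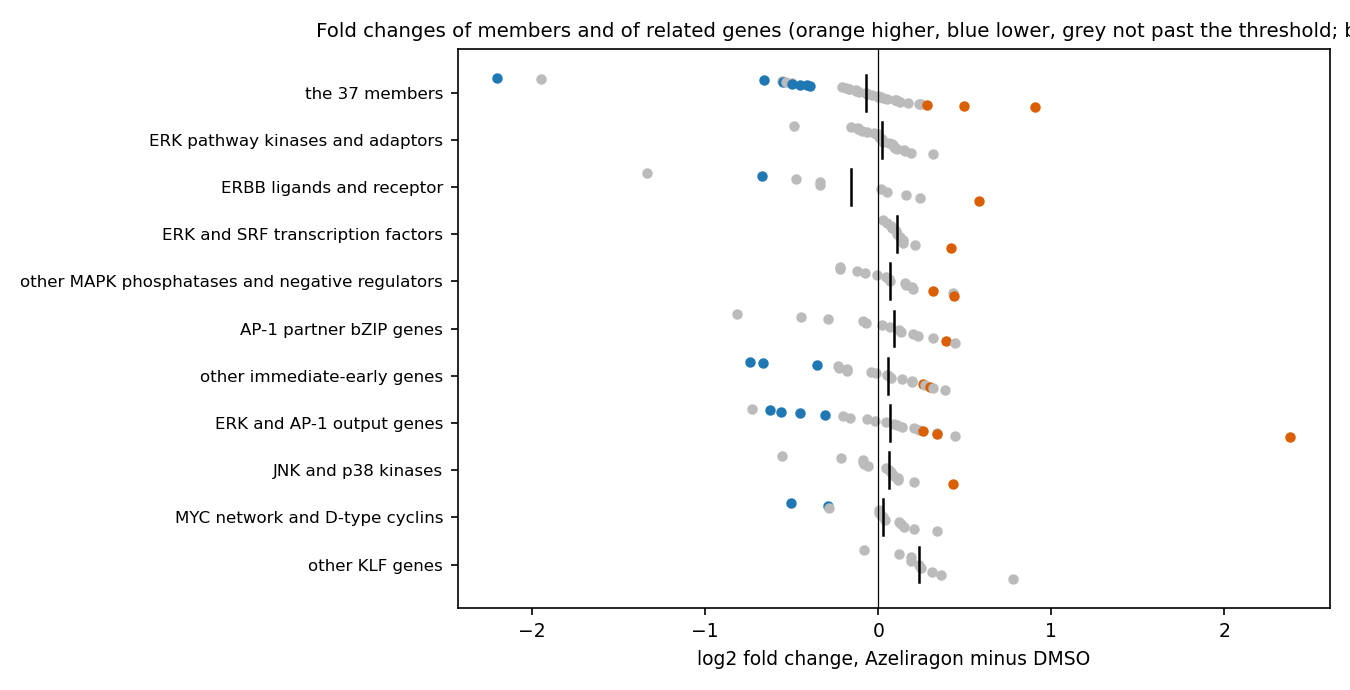
Log2 fold change (Azeliragon minus DMSO, x axis) of each tested gene in the 37-gene list and in the 10 lists of related genes (y axis), fitted over 3 libraries per condition, with a bar at each list's median. Orange points passed the threshold higher, blue ones passed it lower and grey ones did not; the cascade's kinases and adaptors hold no coloured point.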

How the data were processed

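Polyadenylated RNA of 6 MDA-MB-231 libraries was measured. The authors deposited raw counts per gene, whole numbers with no normalization. Per the submitters' processing notes, the build GRCh38 and the tools featureCounts 1.5.0-p3, STAR 2.6.1d and limma were used, with no role stated for each. Not given in the sources used here are the annotation, the strandedness of the counting and how multi-mapping reads were handled. Of the entries, 2 with names turned into numbers (0 reads) were left out, and 1741 shared a name with another, none of them on the 37-gene list.

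Groups came from the labels' treatment. Genes passing filterByExpr of edgeR 4.0.16 were scaled by TMM and compared with glmQLFit and glmQLFTest, treatment being the only term. The threshold was a Benjamini-Hochberg adjusted p under 0.05 over 16081 genes. Levels are TMM-scaled CPM; SEs and 95% intervals are from the fit. Levels per length divide by the exon union of GENCODE 29. The limit that 3 counts set is 0.0677 to 0.0724 CPM before TMM scaling. Such limits reflect counting error alone, because reads lacking molecular identifiers can be copies of 1 molecule. Library pairs of a condition differed beyond sampling noise (chi-square over degrees of freedom, 4.6 or more). The code was tested on simulated data.

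The 37 genes, the lists and the tests were chosen with earlier results of these data known. Genes given in every library were those that passed, the 8 highest and the 4 uncalled with the largest changes; each related list gave up to 4 called genes by smallest p, or its smallest p. Alternatives were other scalings and filters, DESeq2 1.42.0, limma-voom (limma 3.58.1), a replicate block, each library left out, and a GC and length trend removed. R 4.3.3, Python 3.11.15, pandas 2.3.3 and matplotlib 3.10.9 were used.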

Additional observations from a re-analysis of the deposited data

How the results depend on the processing

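Of the 37 genes, 10 passed in edgeR, where 6.27% of all genes did. The count was 11 with relative log expression factors (6.31% of all genes), 10 with library totals (5.80%) and 12 with no filter on low counts (5.78%). It was 9 with a stricter filter that dropped NR4A3 (8.06%), 11 in DESeq2 (8.83%) and 11 in limma-voom (6.39%). With the GC and length trend removed it was 15 (10.3% of all genes), and 7 rather than 3 were higher. With that trend removed and DMSO a left out it was 19 (22.5% of all genes), 8 higher and 11 lower. Leaving out each library gave 6 to 18, with 1 to 6 higher and 5 to 12 lower. The highest counts, 18, 6 and 12, came without DMSO a and the lowest, 6, 1 and 5, without Azeliragon a, where 23.7% and 2.68% of all genes passed. No gene among the 10 changed direction under these settings. Of the related genes, 21 passed, and 33 did with no filter (5.78% of all genes). The count was 41 with the GC and length trend removed (10.3%) and 60 with that and DMSO a left out (22.5%). With each library left out it ran from 8 (without DMSO b, 2.86%, or Azeliragon c, 2.70%) to 53 (without DMSO a, 23.7%). The cause of these shifts was not tested.

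A fit with the library letter as a replicate block called 10 of the 37 genes and 5.65% of all genes. Deviations of same-letter libraries correlated at 0.03, 0.02 and -0.04, and those of different-letter libraries at -0.08 to 0.06. With 3 libraries a condition, these values cannot show whether a letter pairs the libraries, which the labels do not state. With 3 libraries a condition and a biological coefficient of variation of 12.5% in DMSO and 5.64% in Azeliragon, small changes and changes of genes near 1 CPM are the least certain.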
